A study of Mus musculus with 8 samples.

Results

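The cells described here are mouse embryonic stem (mES) cells from a culture treated with CX-5461 that carried a few transcripts of the 2-cell (2C) program. A cell belonged to them if 1 to 4 unique molecular identifiers (UMIs, each standing for 1 captured transcript) were counted in it over 21 marker genes of the 2C state. Of the 4922 CX-5461 barcodes, 4551 passed the filters (at least 500 UMIs, at most a 0.2 share on mitochondrial genes, and collagen genes Col1a1, Col1a2 and Col3a1 together below 0.1% of UMIs), and 376 of these were members (8.26%, exact 95% interval 7.48 to 9.10%). A further 4069 kept cells had 0 marker UMIs and 106 had 5 or more. The whole series held 8760 barcodes. The marker counts chose the members, so those counts are given as a description only, and the measurements that follow bear on whether such cells look like a step between mES cells and 2C-like cells or like cells that hold stray RNA, without deciding it.

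The study compared untreated Control mES cells with mES cells given CX-5461, an inhibitor of RNA polymerase I, which transcribes the ribosomal RNA genes. Both groups were ES cells derived from the inner cell mass (the E14 line by the study's methods), with no genetic change named in the labels, and were grown on gelatin with mouse embryonic fibroblast feeders in medium with LIF and 2i, and the dose and time of CX-5461 in the single-cell libraries are not given in the labels. Transcripts were counted by droplet sequencing of their 3′ ends. The labels list 4 samples per condition, the deposited data are 1 table per condition whose barcodes carry no sample name, and the study describes 1 biological replicate, so each condition is 1 library. Cells of 1 library are not replicates, so no p-values are given, all intervals are 95% and cover counting error only, and whether the libraries share cell barcodes could not be counted. The study shows fewer cells than the filters left here.

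The 2C program is the set of genes transcribed when the mouse zygotic genome is first activated, and a small, changing fraction of mES cells re-enters it in culture. The transcription factor Dux switches on many of these genes, including the Zscan4 cluster, whose products act at telomeres and on genome stability, the Tcstv genes, a family of genes related to the translation factor gene Eif1a, and MERVL retrotransposons. Most of these families are tandem copies that resemble each other closely, which matters for a few UMIs counted at the 3′ end.

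3 clusters supplied nearly all marker UMIs. The Zscan4 cluster (6 markers) lay at chr7:10794242-11402318, the Eif1a-like cluster (Gm8300, Gm5662 and Gm2022) at chr12:87514316-88274500 and the Tcstv cluster (Tcstv1, Tcstv3, Gm21761 and Gm20767) at chr13:119893388-120318178 in mm10. For each cluster 2 promoters are shown, because the clusters are the units by which member cells were compared and copies within a cluster are hard to tell apart. Zscan4f, Zscan4c and Gm21761 are markers, while BB287469, Gm4027 and AF067061 belong to a held-out list of 2C genes that the rule did not use. The leading markers Gm8300 and Gm5662 had no entry in the promoter table used here, and neither had Tcstv1 and Tcstv3. Each line holds the 250 bases before the RefSeq start of the gene in GRCm38.p6, 5′ to 3′ on the gene's strand, with the motif TATAAA or TATATA in capitals. Zscan4f lies at chr7:11397665-11397914 (plus strand), Zscan4c at chr7:11005495-11005744 (plus), BB287469 at chr12:87816327-87816576 (plus), Gm4027 at chr12:87618659-87618908 (plus), Gm21761 at chr13:119913469-119913718 (minus) and AF067061 at chr13:120262845-120263094 (plus).
Zscan4f: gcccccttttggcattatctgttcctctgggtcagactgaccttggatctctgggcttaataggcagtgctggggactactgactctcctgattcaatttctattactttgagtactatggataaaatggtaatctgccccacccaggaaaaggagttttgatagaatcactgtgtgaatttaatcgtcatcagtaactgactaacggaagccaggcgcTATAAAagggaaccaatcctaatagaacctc
Zscan4c: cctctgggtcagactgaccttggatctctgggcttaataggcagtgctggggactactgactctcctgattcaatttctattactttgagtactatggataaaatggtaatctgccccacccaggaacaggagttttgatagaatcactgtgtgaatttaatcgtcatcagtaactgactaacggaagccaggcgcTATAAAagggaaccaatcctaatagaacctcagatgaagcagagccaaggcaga
BB287469: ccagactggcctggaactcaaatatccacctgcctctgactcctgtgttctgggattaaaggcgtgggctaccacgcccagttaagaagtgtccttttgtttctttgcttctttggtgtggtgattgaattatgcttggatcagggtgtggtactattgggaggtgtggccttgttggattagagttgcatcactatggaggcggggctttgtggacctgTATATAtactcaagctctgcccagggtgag
Gm4027: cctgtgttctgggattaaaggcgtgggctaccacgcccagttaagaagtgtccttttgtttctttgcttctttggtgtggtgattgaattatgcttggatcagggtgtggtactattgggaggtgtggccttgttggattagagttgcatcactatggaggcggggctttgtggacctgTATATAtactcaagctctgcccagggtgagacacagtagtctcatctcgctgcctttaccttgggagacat
Gm21761: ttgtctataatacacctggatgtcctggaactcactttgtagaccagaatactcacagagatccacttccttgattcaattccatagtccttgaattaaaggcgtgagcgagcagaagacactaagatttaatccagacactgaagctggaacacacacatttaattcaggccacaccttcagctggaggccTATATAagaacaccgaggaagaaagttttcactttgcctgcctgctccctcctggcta
AF067061: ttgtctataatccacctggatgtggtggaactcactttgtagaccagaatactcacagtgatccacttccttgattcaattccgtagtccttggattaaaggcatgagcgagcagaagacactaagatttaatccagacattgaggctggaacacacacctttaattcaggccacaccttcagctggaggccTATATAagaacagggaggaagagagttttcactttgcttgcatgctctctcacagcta

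Within each cluster the paired promoters were nearly the same. Aligned without gaps at the best offset, Zscan4f and Zscan4c matched at 226 of 227 bases (99.6%), BB287469 and Gm4027 at 209 of 209 (100%) and Gm21761 and AF067061 at 231 of 250 (92.4%), whereas pairs from different clusters matched at 31.7 to 36.3%. The Zscan4 promoters held TATAAA 31 bases before the start in Zscan4f and 54 in Zscan4c. The other promoters held TATATA, 30 bases before the start in BB287469, 71 in Gm4027 and 58 in both Gm21761 and AF067061. Of 32851 promoters of the same length, TATAAA occurred on the gene's strand in 7.59% (12.4% on either strand) and TATATA, which reads the same on both strands, in 5.25%. A match describes the letters only.

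The members were mES cells by their other transcripts. Pou5f1, the core pluripotency factor, had a UMI in 98.7% of members and in 98.3% of the 1128 cells with 0 marker UMIs that were matched to them on total UMIs (3 per member). Nanog was found in 87.8% and 86.8%, Sox2 in 76.1% and 78.0%, and Zfp42, a naive marker, in 96.3% and 93.3%. The most feeder-specific fibroblast genes were near 0, with Dcn in 0.532% of members against 79.5% of the 146 collagen-rich feeder cells set aside by the filter, and Lum in 0 of 376 members against 30.1% of feeder cells. For 0 of 376 cells, the exact interval reaches 0.976%. The matrix genes Fn1 and Sparc, found in every feeder cell, were common in mES cells too, in 74.2% and 87.0% of members and 75.7% and 86.7% of matched cells. The primitive endoderm factors Gata4 and Sox17 were each found in 0.532% of members, Gata6 in 2.93% (3.72% of matched cells), and the trophoblast factor Cdx2 in 2.93%, against 4.17% of matched cells.

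By median, members were close to the other kept cells in depth and RNA quality. Their median total was 14584.5 UMIs, against 14047 in cells with 0 marker UMIs and 13036 in cells with 5 or more. Median genes per cell were 3638.5, 3545 and 3455. The median mitochondrial share was 4.12%, 4.13% and 4.18%, and the median share of ribosomal protein genes 23.9%, 23.9% and 23.6%. The 18 members with 4 marker UMIs were more mixed. Their upper quartile of mitochondrial share was 10.7%, against 4.67% over all members. Their lower quartile of depth was 6997.75 UMIs, against 11815.25. Levels given below by single class of marker UMIs were not matched on depth. With the kept cells cut into 5 equal bins by depth, members made up 6.59%, 7.91%, 8.57%, 9.67% and 8.57%, from the shallowest to the deepest bin. When every kept cell was thinned to 3000 UMIs, 144 of 4532 cells had 1 to 4 marker UMIs (3.18%), and 33 of those had had 5 or more before thinning. The doublet caller Scrublet marked 1 of 4551 cells and so did not work here. Among the 5% of kept cells with the highest doublet score were 16 of 376 members (4.26%), 211 of 4069 cells with 0 marker UMIs (5.19%) and 1 of 106 with 5 or more (0.943%).

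Most members rested on a single transcript. Exactly 1 marker UMI was counted in 287 of the 376 cells, 2 in 50, 3 in 21 and 4 in 18. At the threshold, the 18 cells with 4 marker UMIs stood beside 13 cells with 5. Above it, 57 cells had 5 to 19 and 49 had 20 or more, up to 1097 in 1 cell. The 376 members together held 522 marker UMIs and the 106 cells above the threshold 8550, so that the members' sum was 6.11% of theirs (5.58 to 6.67%).

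In Control, where 2C-like cells were rarer, both groups of cells were smaller. Of 3626 kept Control cells, 70 had 1 to 4 marker UMIs (1.93%) and 15 had 5 or more (0.414%), against 8.26% and 2.33% in CX-5461. The members' marker UMIs summed to 5.89% of those of the cells with 5 or more (78 against 1325 UMIs). A single Control cell held 583 of the 1325. These UMIs also set the groups, so this value and the 6.11% in CX-5461 are a description and are not compared. Thinned to 3000 UMIs, 20 of 2827 Control cells (0.707%) had 1 to 4 marker UMIs. These are 2 libraries, so the difference between them is not a tested effect of CX-5461.

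Markers of the members came from every cluster, led by the Eif1a-like genes. Gm5662 gave 169 of the 522 UMIs (32.4%) and Gm8300 125 (23.9%), Zscan4f gave 54 (10.3%), Gm21761 43 (8.24%), Gm20767 27 and Zscan4c 26. Zscan4d gave 23, Zscan4a 19, Usp17la 8, Tcstv3 7, Usp17lc 6, Zscan4e and Gm12794 4 each, Gm2022 3, Usp17le 2, and Zscan4b and Spz1 1 each. Tcstv1, Zfp352, Gm4340 and Tdpoz4 had no UMI in any member. In the cells with 5 or more these made up 0.88%, 0.33%, 0.47% and 0.01% of marker UMIs. For 0 of 522 UMIs the exact interval reaches 0.70%, which is too narrow because UMIs of 1 cell are not independent draws. The 75 Tcstv1 UMIs lay in 15 of the 106 cells with 5 or more. No absence is read as a difference, since these UMIs set the classes.

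By cluster, the members' Zscan4 share was close to that of cells with 5 to 19 marker UMIs, and their Tcstv share lay between those of the classes above. Zscan4 genes made up 24.3% of marker UMIs in members (20.7 to 28.2%), 24.6% in cells with 5 to 19 and 14.6% in cells with 20 or more. Over all cells with 5 or more it was 15.2%. Since these UMIs also set the classes, the shares are a description and their differences are not compared further. Zscan4f, the Zscan4 gene with the most UMIs in members, made up 10.3% of their marker UMIs, 6.29% at 5 to 19 and 2.63% at 20 or more. The Tcstv genes made up 14.8% in members (11.8 to 18.1%), 7.24% at 5 to 19 UMIs and 31.7% at 20 or more. The Eif1a-like genes made up 56.9%, 66.7% and 49.6%. UMIs of 1 cell are not independent draws and a few cells supply most UMIs above 20, so these intervals are too narrow.

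**Figure D1:**
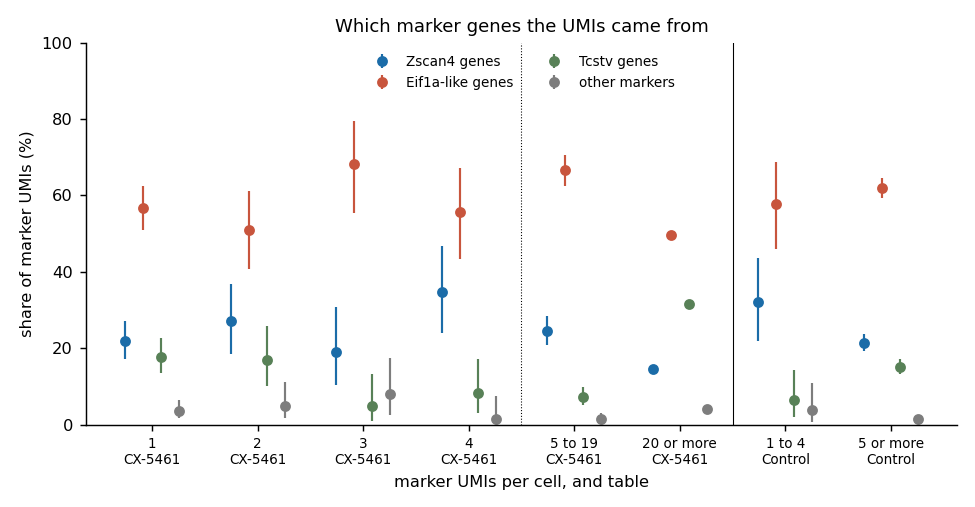
Share of marker UMIs (%) from each gene cluster, by the number of marker UMIs per cell in CX-5461 (left of the solid line) and in Control (right), with points for shares, bars for exact 95% intervals and the dotted line at the members' upper limit. In CX-5461 the Tcstv share is 31.7% in cells with 20 or more marker UMIs and 7.24% at 5 to 19, and the Eif1a-like genes lead in every class.

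Members with more than 1 marker UMI often showed more than 1 gene. Of the 89 members with 2 to 4 UMIs, 58 had UMIs of at least 2 marker genes and 28 (31.5%) had UMIs from at least 2 clusters. By count these were 11 of 50 cells with 2 UMIs, 8 of 21 with 3 and 9 of 18 with 4. At 5 to 19 UMIs, 38 of 57 cells (66.7%) had at least 2 clusters, and at 20 or more 46 of 49 (93.9%). A cell with more UMIs has more chances to show a second cluster, so these shares describe the cells and are not compared.

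Feeder fibroblasts in the same library give the level of marker RNA in cells of another type. Of 146 feeder cells, 6 had 1 to 4 marker UMIs (4.11%, 1.52 to 8.73%) at a median depth of 24958.5 UMIs, against 8.26% of kept cells at a median of 14075, and the intervals overlap. After thinning to 3000 UMIs the shares were 1.37% of feeder cells (2 of 146, 1 of which had held 5 or more before) and 3.18% of kept cells. A single feeder cell held 21 marker UMIs. Without it, the other 145 held 8 marker UMIs, or 2.17 CPM (0.939 to 4.29; counts scaled to 1000000 UMIs outside the marker genes), while the kept mES cells with 0 to 4 marker UMIs averaged 8.21 CPM (7.52 to 8.94). The intervals of these levels do not overlap. The feeder level was 1.56% of the mean over all kept cells (0.673 to 3.07%). Transcripts common in mES cells were counted in feeder cells at a like or higher fraction, and their origin there was not tested. Pou5f1 stood at 2.72% of its level in kept cells, Dppa5a at 2.84%, Zfp42 at 2.29% and Tdh at 1.86%. The 20 pluripotency genes together stood at 4.94%. Per cell, feeders held 0.055 marker UMIs and kept cells with 0 to 4 held 0.117. In Control, 3 of 141 feeder cells had 1 to 4 marker UMIs (2.13%), and their level of 0.919 CPM (0.189 to 2.69) overlapped the 1.70 CPM (1.34 to 2.12) of kept cells with 0 to 4. What part of the members' UMIs came from free RNA was not tested.

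The levels of each 2C gene outside the cells with 5 or more marker UMIs are described next, and for the marker genes they follow in part from the rule, which split the cells by these UMIs. For 18 marker genes with at least 20 UMIs in cells with 5 or more, the level over all cells with 0 to 4 marker UMIs was 0 to 0.502% of that in the cells with 5 or more, with a median of 0.121% and 3 genes at 0. Zscan4f was highest at 0.50% (0.37 to 0.68%), and Gm5662 stood at 0.16% and Gm21761 at 0.07%. Among 26 genes of a second, held-out list of 2C genes that the rule did not use, the range was 0 to 93.8% and the median 0.270%. These too needed at least 20 UMIs in the cells with 5 or more, which favours genes high there, so the median is a description only. Genes left out by this minimum included Pramel7 at 34.6% (4 UMIs) and BC061212 at 2.03% (19 UMIs). The highest values of the 26 were those of genes that mES cells express in any state, such as Eif1a at 93.8%. Among the rest, Sp110, a nuclear body protein, stood at 1.16%, Tmem92 at 0.81%, Duxf3, a gene of the Dux array, at 0.66% and Gm13119 at 0.63%, while B020031M17Rik stood at 0.12%, Gm8994 at 0.11% and AF067061 at 0.01%.

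**Figure D2:**
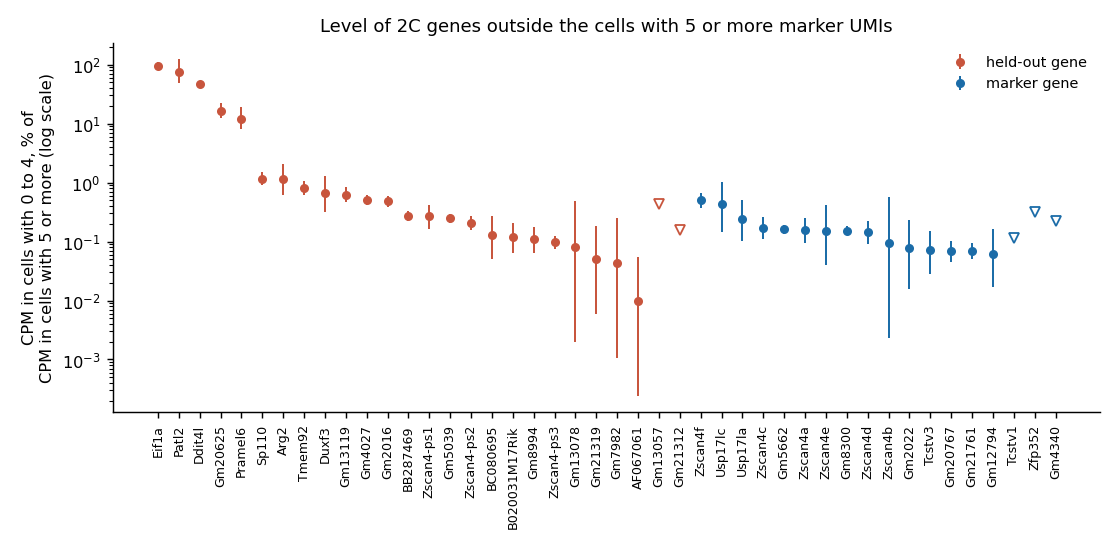
Level of each 2C gene over all CX-5461 cells with 0 to 4 marker UMIs, as a percent of its level in cells with 5 or more (log axis), for held-out genes (red) and marker genes (blue) with at least 20 UMIs in the latter cells. Points are ratios of CPM with 95% intervals, and open triangles are upper limits of genes with no UMI below 5 marker UMIs. Marker genes lie at or below 0.502%, and held-out genes run from 93.8% for Eif1a to 0.

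The held-out list of 50 2C genes asks whether members carried more of the program than the UMIs that chose them. Of these, 49 were found in the table and 46 had a UMI in kept CX-5461 cells. Summed, the list reached 336 CPM in members (1858 UMIs) and 252 CPM in matched cells with 0 marker UMIs (4187 UMIs), a log2 ratio of 0.41 (0.33 to 0.49). In the cells with 5 or more it reached 5905 CPM, a log2 ratio of 4.14 (4.06 to 4.22) over members matched to them. This distance was 1.67 (1.53 to 1.81) for the cells with 5 to 19 marker UMIs and 5.21 (5.09 to 5.33) for those with 20 or more. Ddit4l (750 UMIs in members, 2076 in matched cells, log2 0.12) and Eif1a (561 and 1590, log2 0.08) supplied most UMIs of the list and hardly differed. Without both, the sum was 98.8 CPM in members and 31.4 CPM in matched cells, a 3.15-fold ratio (2.79 to 3.56), and the cells with 5 or more stood 53.5-fold above members (48.7 to 58.9).

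As a sum, the excess in members was largest in the set of genes that share most 3′ sequence with the markers, though not in every gene of that set. The 3′ ends were compared by the share of 60-base windows in the last 500 bases of each transcript that also occur in a marker gene. For the 7 genes that shared over 30% of windows, which include Gm2016 (86.4%) and the pseudogenes Zscan4-ps3 (53.1%), Zscan4-ps2 (48.5%) and Zscan4-ps1 (38.8%), members held 215 UMIs and matched cells 15, a 43.0-fold ratio (25.5 to 78.2). The most similar genes of this set, Gm6763 and Gm21312 (97.3% each), had no UMI in members or matched cells, and AF067061 (34.2%) had 1 in members. The Zscan4-ps genes are called pseudogenes here by their names only. The annotation used for symbols types them as protein-coding, and types the marker Zscan4a as an unprocessed pseudogene. For the 3 that shared up to 30% (Gm5039 at 4.99%, BB287469 and Gm4027 at 3.40%), the counts were 123 and 100, a 3.69-fold ratio (2.81 to 4.85). For the 38 genes that shared none, Ddit4l and Eif1a apart, the counts were 209 and 406, a 1.54-fold ratio (1.30 to 1.83). Over the same 3 sets, the cells with 5 or more stood 55.1-fold, 82.9-fold and 32.9-fold above members. A UMI's sequence is not in the table, so a transcript assigned to the wrong copy cannot be told apart from a second transcript.

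In Control, members held 19 UMIs of the 7 most similar genes and matched cells 0. For the genes that shared no window, Control members held 16 UMIs and matched cells 51, a 0.941-fold ratio (0.501 to 1.68), which overlaps the 1.54-fold of CX-5461.

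Gene by gene, Zscan4 pseudogenes and Gm2016 had the highest ratios. Zscan4-ps3 had 52 UMIs in members and 3 in matched cells (52.0-fold, 16.8 to 260), in 27 members and 3 matched cells. Zscan4-ps2 had 48 and 3 (48.0-fold, 15.5 to 241). Gm2016, an Eif1a-like gene, came next with 95 and 7 UMIs (40.7-fold, a log2 ratio of 5.35 with an interval of 4.25 to 6.70), before Zscan4-ps1 with 19 and 2 (28.5-fold, 6.88 to 252). Gm2016 was found in 21.5% of members and 0.532% of matched cells.

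Genes with little or no shared sequence differed less. BB287469 had 49 UMIs in members and 33 in matched cells (4.45-fold, 2.81 to 7.15), Gm4027 34 and 24 (4.25-fold, 2.45 to 7.49) and Gm5039 40 and 43 (2.79-fold, 1.77 to 4.40). All 3 are Eif1a-like genes of chromosome 12. Away from the clusters, Gm13119 had 26 and 8 UMIs (9.75-fold, 4.29 to 24.9), in 5.32% of members and 0.621% of matched cells, and Tmem92 had 16 and 16 (3.00-fold, 1.40 to 6.41). Pramel7, a PRAME family gene of naive mES cells, had 16 and 11 UMIs (4.36-fold, 1.90 to 10.4) but no excess in cells with 5 or more over members (4 UMIs against 14). Pramel6 of the same family had 21 and 48 UMIs (1.31-fold, 0.75 to 2.23). BC061212 had 7 and 5 UMIs and Arg2, a mitochondrial arginase, 5 and 8. Sp110 had 12 and 21 UMIs (1.71-fold, 0.77 to 3.65), Patl2 56 and 162 (1.04-fold, 0.75 to 1.41) and Gm20625 35 and 111 (0.95-fold, 0.63 to 1.39).

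Several held-out genes counted in the cells with 5 or more had at most 3 UMIs in members. Gm8994 had 374 UMIs in the cells with 5 or more but 1 in members and 4 in matched cells, and B020031M17Rik had 266, 1 and 2. AF067061, whose promoter is shown above, had 235, 1 and 0, and Gm21312 had 55, 0 and 0. Gm21319 had 91, 0 and 1, and BC080695 125, 2 and 2. Gm7982, Gm13078 and Gm13057 had 53, 28 and 21 UMIs in the cells with 5 or more and none in members or matched cells. Duxf3 had 41 UMIs in the cells with 5 or more, 3 in members and 2 in matched cells, too few for a ratio. Of Gm8994, AF067061 and B020031M17Rik, the cells with 5 to 19 marker UMIs held none, so that these genes were seen almost only in the cells with 20 or more.

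Zscan4-ps3 and Gm5039 had a higher level in each class with more marker UMIs. Zscan4-ps3 stood at 0.155 CPM in all cells with 0 marker UMIs, 4.24 with 1, 24.6 with 2, 28.6 with 3 to 4, 112 with 5 to 19 and 2160 with 20 or more. For Gm5039 these were 1.91, 3.77, 16.4, 21.5, 124 and 2069 CPM, and for Gm13119 0.620, 2.36, 8.19, 17.9, 16.9 and 344 CPM. The intervals of neighbouring classes overlapped for Gm13119 between 1 and 2 UMIs (1.13 to 4.33 and 3.01 to 17.8 CPM) and between 3 to 4 and 5 to 19. In all 3 genes they overlapped between 2 and 3 to 4 UMIs, and for Gm5039 also between 0 and 1. Gm8994 showed no such gradation, at 0.293, 0.235, 0, 0, 0 and 609 CPM. In the first 3 genes, members with 3 to 4 UMIs stood far below the cells with 20 or more.

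**Figure D3:**
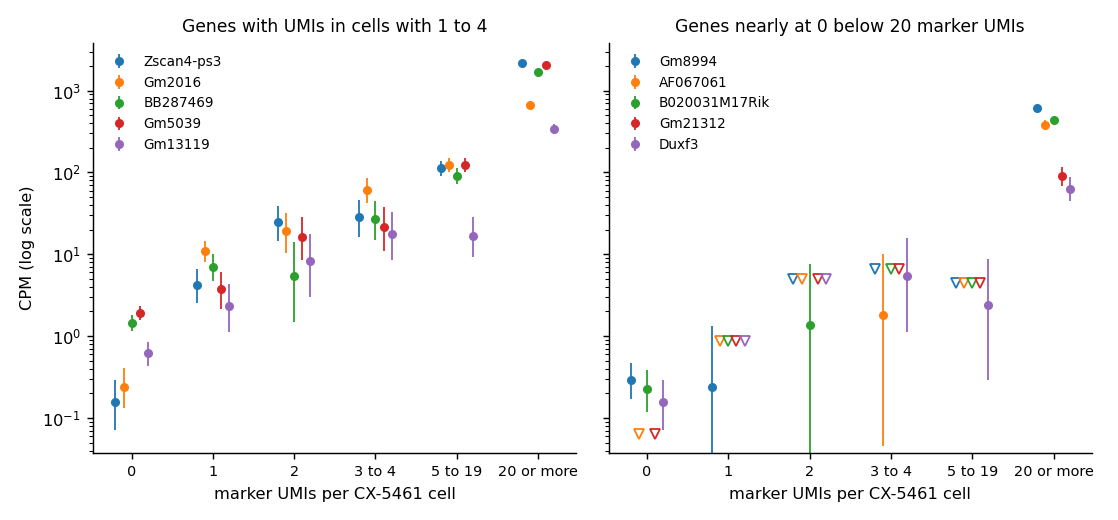
Level in CPM (log axis) of 10 held-out 2C genes in CX-5461 cells grouped by marker UMIs, with exact 95% intervals and open triangles for the upper limit where a class had no UMI. Zscan4-ps3 goes from 0.155 CPM at 0 marker UMIs to 2160 at 20 or more through the members (left), while Gm8994 and the genes beside it are near 0 up to 19 marker UMIs (right).

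Members chosen by one cluster were then examined for the held-out genes of the other clusters. The 98 members with any Zscan4 marker UMI held 34 UMIs of the held-out Eif1a-like genes and their matched cells 21 (4.86-fold, 2.74 to 8.81), in 19 of 98 members (19.4%) and 16 of 294 matched cells. The 224 with any Eif1a-like marker held 32 UMIs of the Zscan4 pseudogenes and their matched cells 4 (24.0-fold, 8.51 to 93.4), in 13 cells (5.80%). The 65 with a Tcstv marker held 14 Zscan4 pseudogene UMIs and their matched cells 0, and 6 and 9 UMIs of the Eif1a-like genes (2.00-fold, 0.586 to 6.29).

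These cross-cluster excesses were smaller in members whose markers came from a single cluster. In the 77 with Zscan4 markers only, the Eif1a-like genes had 14 UMIs against 18 in matched cells (2.33-fold, 1.07 to 4.96), while the Zscan4 pseudogenes had 72 against 2 (108-fold, 28.8 to 909). In the 201 with Eif1a-like markers only, the Zscan4 pseudogenes had 5 UMIs against 4 (3.75-fold, 0.81 to 18.9), while the Eif1a-like genes had 163 against 75 (6.52-fold, 4.93 to 8.69). The 59 with Tcstv markers only held 6 Zscan4 pseudogene UMIs against 0, in 2 cells. Matched cells had 0 marker UMIs of every cluster. Members with any marker of 1 cluster could also hold markers of another, which raised their values above by construction. For held-out genes of another cluster, requiring a single cluster removes such members, and neither group then held markers of the counted cluster. For held-out genes of the same cluster, each member held such a marker by selection and no matched cell did. The 108-fold and 6.52-fold ratios are thus not free of the choice of members.

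Across all genes, members hardly differed from matched cells with 0 marker UMIs. Of 7312 genes with at least 200 UMIs over both groups, 30 (0.41%) differed by 1.5-fold or more, 8 higher in members (0.109%) and 22 lower (0.301%). The median log2 ratio was 0.01, and 90% of genes lay between -0.25 and 0.26. Of the held-out list, 3 genes had enough UMIs to be included and none passed 1.5-fold. At a minimum of 50 UMIs, 511 of 11592 genes (4.41%) passed 1.5-fold, 216 of them higher in members (1.86%), and 6 of the 11 held-out genes included were among the latter. With 1 matched cell per member, 5097 genes had 200 UMIs and 10 passed, 2 of them among the 30.

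Fgfbp1, which encodes a secreted carrier of fibroblast growth factors, had the highest ratio among genes found in at least 10 cells of each group. It had 453 UMIs in members and 754 in matched cells (81.8 and 45.4 CPM, 1.80-fold, 1.60 to 2.03), and was found in 35.6% and 29.7% of cells. By class it stood at 49.8 CPM with 0 marker UMIs, 66.7 with 1 (59.1 to 74.9), 108 with 2 and 163 with 3 to 4 (131 to 200), then at 76.0 with 5 to 19 (58.4 to 97.3) and 129 with 20 or more. The highest of these was in members with 3 to 4 marker UMIs, where 14 of 39 cells held its 91 UMIs, and its interval overlaps that of the cells with 20 or more (102 to 160). The most in 1 member was 33 UMIs. In Control, Fgfbp1 had 9 UMIs in members and 35 in matched cells, a log2 ratio of -0.37 (-1.62 to 0.71).

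Other genes with at least 200 UMIs that passed 1.5-fold higher stood close to that limit and rested on fewer UMIs. Ces2e, a carboxylesterase, had 94 and 177 UMIs (1.59-fold, 1.23 to 2.06), Tmod3, which caps actin filaments, 80 and 156 (1.54-fold) and Rb1, the retinoblastoma protein gene, 92 and 183 (1.51-fold, 1.16 to 1.95). 4930447C04Rik, Sh3gl2, Ly6k and Lmbr1l lay between 1.51-fold and 1.52-fold. Pogz and Mpp4, next in rank, were at 1.48-fold. Lmbr1l was higher again in the cells with 5 or more (46 UMIs against 60 in 318 matched members, log2 1.25, 0.66 to 1.82), and Tmod3, Sh3gl2 and Rb1 were not.

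Krt42, a type I keratin gene, had the lowest ratio among genes found in at least 10 cells of each group with no cell over 20% of the UMIs. It had 44 UMIs in members and 247 in matched cells (7.95 and 14.9 CPM, 0.53-fold, 0.38 to 0.74) and stood at 2.77 CPM in the cells with 5 or more. In Control the direction was opposite, with 41 and 81 UMIs (39.7 and 26.1 CPM, log2 0.60, 0.02 to 1.16). After it came Gm14176 (0.56-fold) and Gm5931 (0.58-fold), both processed pseudogenes, Aldh4a1, an enzyme of proline breakdown (57 and 290 UMIs, 0.59-fold, 0.44 to 0.79), and Sco1, a copper chaperone of cytochrome oxidase (0.59-fold). The homeobox genes Gbx2 (58 and 288 UMIs, 0.60-fold, 0.45 to 0.80) and Hoxb9 (0.61-fold) followed, with Pmepa1, Btbd2 and Zfp462 at 0.61-fold to 0.63-fold.

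Single cells set the most extreme low ratios. Acta2, smooth muscle actin, had 3 UMIs in members and 350 in matched cells, of which 1 cell held 321 together with 687 UMIs of fibroblast genes. Ftl1, ferritin light chain, had 418 and 2745 UMIs, of which 1 cell held 1006, and its log2 ratio moved from -1.13 to -0.47 without that cell.

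**Figure D4:**
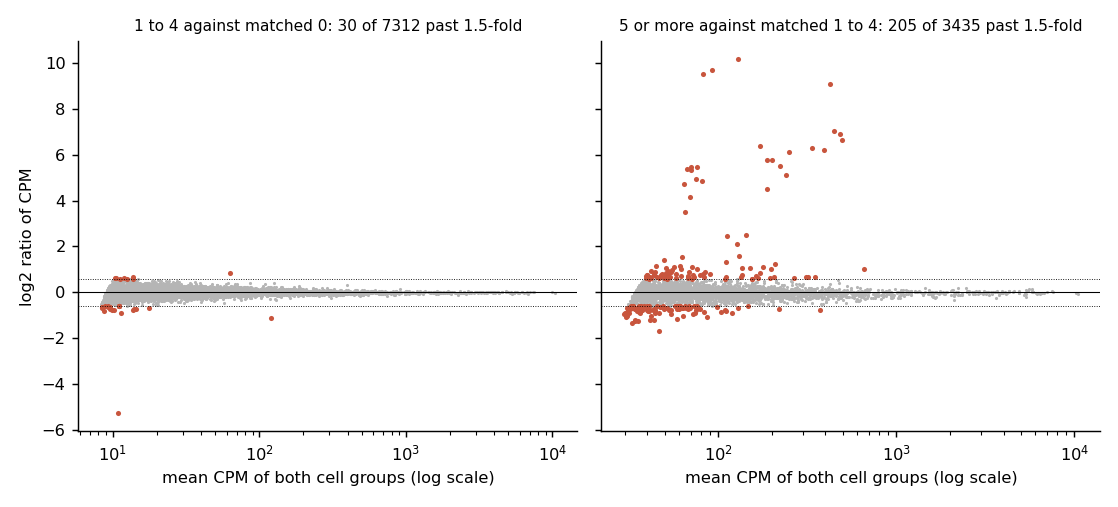
Log2 ratio of CPM against mean CPM (log axis) for every gene with at least 200 UMIs, for members against matched cells with 0 marker UMIs (left) and for cells with 5 or more against matched members (right). Red points pass 1.5-fold (dotted lines), 30 of 7312 genes on the left and 205 of 3435 on the right, and the lowest point on the left is Acta2.

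Cells with 5 or more marker UMIs differed from members in more genes. Of 3435 genes with at least 200 UMIs over both groups, 205 (5.97%) passed 1.5-fold, 105 higher (3.06%) and 100 lower (2.91%). When only the cells with 5 to 19 were set against members, 54 of 2227 genes (2.42%) passed. Gm8332, which lies inside the Eif1a-like cluster at chr12:88249666-88250100, was on neither list. Among those of the 3435 genes found in at least 10 cells of each group, it had the highest ratio. It had 1274 UMIs in the cells with 5 or more and 30 in matched members (log2 7.04, 6.52 to 7.61). Members already had more of it than matched cells with 0 marker UMIs, at 32 against 5 UMIs (19.2-fold, 7.43 to 63.1).

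Unlisted genes outside the clusters were far higher in the cells with 5 or more and little higher in members. Gm48271 on chromosome 10 had 956 UMIs in the cells with 5 or more against 38 in matched members (log2 6.28), and 40 in members against 83 in matched cells with 0 (1.45-fold, 0.97 to 2.13). Gm48799 on chromosome 13 had a log2 ratio of 6.10 in the first comparison and a 1.58-fold ratio in the second (39 and 74 UMIs, 1.04 to 2.36). Gm38947 on chromosome 7, outside the Zscan4 cluster, had 5.78 and 1.92-fold (34 and 53 UMIs, 1.21 to 3.02), and Gm47808 on chromosome 12, outside the Eif1a-like cluster, had 6.38 and 1.21-fold (19 and 47 UMIs, 0.67 to 2.11). Within the members, Gm48271 stood at 5.42 CPM in cells with 1 marker UMI and 13.2 CPM in cells with 2 to 4.

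In Control these genes were concentrated in single members. Gm48271 had 81 UMIs in the 70 Control members, 71 of them in 1 cell, Gm47808 had 18 of 23 in 1 cell and Gm38947 26 of 38. No CX-5461 member held more than 3 UMIs of any of them.

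The genes lowest in the cells with 5 or more, chosen by their ratio to members, were close to level between members and matched cells. Egr1, an immediate early transcription factor, had 32 UMIs in the cells with 5 or more and 314 in matched members (log2 -1.67, -2.24 to -1.14), but 374 in members and 1130 in matched cells with 0 (0.99-fold, 0.88 to 1.12). Mdm4, an inhibitor of p53, had a log2 ratio of -1.22 (-1.75 to -0.72) in the first comparison and 0.93-fold (0.82 to 1.05) in the second. Alpl, alkaline phosphatase, had -1.16 (-1.61 to -0.74) and 0.96-fold (0.86 to 1.07). Nt5c, Twf2, Tmem181b-ps, Ubald2, Gjb5, Gm42047 and Nefm had log2 ratios of -1.33 to -1.08 in the first comparison and 0.88-fold to 1.16-fold in the second.

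By number of marker UMIs, these lower levels lay mainly above the members' range. Mdm4 stood at 66.1 CPM with 0, 62.2 with 1, 62.8 with 2 and 59.1 with 3 to 4, then at 27.8 with 5 to 19 and 24.4 with 20 or more. Egr1 stood at 71.4, 73.2, 57.4 and 37.6 CPM over the same first classes (23.3 to 57.5 for 3 to 4, from 21 UMIs), then at 35.0 and 4.89. Utf1, a chromatin factor of pluripotent cells, stood at 85.7, 89.5, 87.4 and 51.9 CPM (34.8 to 74.5 for 3 to 4), then at 53.1 and 26.1. For Egr1 and Utf1, the 39 members with 3 to 4 UMIs thus overlapped the cells with 5 to 19. Pou5f1 stood at 748, 708, 695 and 669 CPM up to 4 marker UMIs, and at 533 and 546 above.

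The gene lists of other programs were mostly close to level between members and matched cells. The 20 pluripotency genes had a log2 ratio of their sums of -0.02 (-0.03 to -0.01) and none of them passed 1.5-fold, where 0.41% of all genes did. In the cells with 5 or more against members, the sum was lower by a log2 ratio of -0.20 (-0.24 to -0.17), and 3 of 17 genes passed 1.5-fold, where 2.91% of all genes were lower. These were Utf1 (log2 -1.03, -1.45 to -0.64), Tfcp2l1, a naive transcription factor (-0.87, -1.22 to -0.54), and Tcl1, a cofactor of Akt kinases (-0.62, -1.13 to -0.13). In members against matched cells they had log2 ratios of 0.02, -0.09 and -0.06.

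Regulators of the 2C program were level as a list, with intervals of the log2 ratio of -0.02 to 0.02 in members and -0.03 to 0.05 in the cells with 5 or more. Nelfa, a subunit of the negative elongation factor, had 275 UMIs in the cells with 5 or more and 153 in matched members (log2 2.47, 2.18 to 2.77), and 189 in members and 562 in matched cells with 0 (0.01, -0.23 to 0.25). By class it stood between 26.9 and 35.8 CPM up to 4 marker UMIs, at 22.9 with 5 to 19 and at 417 with 20 or more. Dppa2, an activator of Dux, had a log2 ratio of 1.05 (0.83 to 1.26) in the first comparison and 0.14 (-0.01 to 0.28) in the second.

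Genes tied to the RNA polymerase I block were close to level in members. The p53 targets had log2 ratios of 0.03 (0.02 to 0.05) in members and -0.05 (-0.09 to -0.02) in the cells with 5 or more, and Cdkn1a, the cell cycle inhibitor they include, -0.03 and -0.29. Ribosome biogenesis genes had -0.01 and -0.10 (-0.13 to -0.07). Ubtf, a transcription factor of RNA polymerase I, had -0.06 and -0.75 (-1.28 to -0.26). The 79 ribosomal protein genes had 0.00 in both comparisons. Integrated and endoplasmic reticulum stress genes had 0.10 (0.07 to 0.13) and -0.04, heat shock genes -0.03 and -0.13, G1/S and S phase genes -0.04 and -0.11 (with Mcm2, a replication helicase subunit, at -0.59 in the cells with 5 or more), and G2/M genes 0.00 and 0.05.

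Small differences of the same direction in both comparisons were seen in the germline, trophoblast and epidermal keratin lists. Germline genes had a log2 ratio of 0.17 (0.11 to 0.23) in members and 0.29 (0.17 to 0.40) in the cells with 5 or more. Among them Dazl, an RNA-binding protein of germ cells, had 0.36 (0.10 to 0.62) and 0.92 (0.50 to 1.34), and Tex19.1, which restrains retrotransposons, 0.17 and 0.59. The trophoblast list had 0.21 (0.11 to 0.30) and 0.42 (0.26 to 0.58), nearly all from Krt7 (1122 UMIs in members and 2807 in matched cells, 0.26 and 0.50), while Cdx2 was not higher. The epidermal keratin list, which does not hold Krt42, had 0.35 (0.14 to 0.55) and 0.59 (0.26 to 0.92). Its Krt5 and Krt15, keratins of stratified epithelia, had 0.40 each in members, with Krt5 found in 25.8% of members and 18.7% of matched cells. None of these passed 1.5-fold in members.

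Signalling genes and markers of other cells were close to level or went in differing directions. In the Nodal, Lefty and BMP list, at 0.07 and -0.17, Lefty2, a Nodal inhibitor, had 0.35 (0.15 to 0.55) in members and -1.03 (-1.55 to -0.54) in the cells with 5 or more. Formative and germ layer genes had -0.01 and -0.21, and primitive endoderm genes 0.16 (-0.11 to 0.42) and -0.07. Fibroblast genes had -0.14 (-0.18 to -0.10) and -0.02, at 950 CPM in members, 1047 in matched cells and 25754 in feeder cells. Of the 17395 fibroblast UMIs in matched cells, the cell with the most Acta2 held 687 and the cell with the most Ftl1 held 775. The list ratio without these cells was not computed. For fibroblast genes, the highest share in any cell was 0.23% of UMIs in members and 8.49% in matched cells. S100a6, a calcium-binding protein on that list, had a log2 ratio of 0.66 in the cells with 5 or more.

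**Figure D5:**
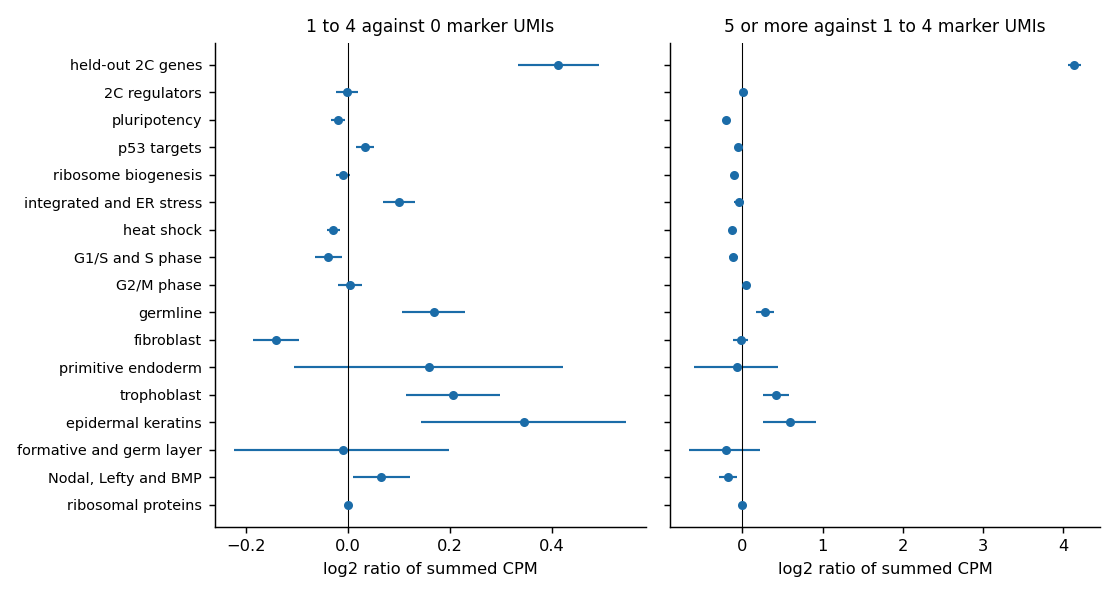
Log2 ratio of summed CPM for each gene list with 95% intervals, for members against matched cells with 0 marker UMIs (left) and cells with 5 or more against matched members (right, wider axis). The held-out 2C genes lead both panels at 0.41 and 4.14, and every other list lies within 0.35 of 0 on the left.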

How the data were processed

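The data were deposited as 1 table of UMI counts per gene and barcode for each condition. From droplet libraries of the 10x Genomics 3′ v2 chemistry, the authors obtained these UMI counts by an earlier published workflow, and the submitters' processing notes name the mm10 genome build and Seurat 2.3.4. The study's methods name Bowtie as that workflow's aligner, replaced by HISAT2 for repeat sequences, and the gene annotation is not given in the sources used here. The counts are not normalized, and 0 columns of other samples were left out.

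Ensembl identifiers were given symbols (54079 of 54146 matched), and kept cells and members were taken by the rule above. Total UMIs were 69841836 in the CX-5461 table (median 13952 per barcode) and 49610287 in Control (median 12800.5). Levels are CPM, the UMIs summed over cells and scaled to 1000000 UMIs outside the marker genes. Each member was matched without replacement to the 3 nearest cells with 0 marker UMIs on total UMIs, and each cell with 5 or more to 3 members. The second matching was looser, with a median of 13867.5 UMIs outside the marker genes in the 318 matched members and 12923 in the cells with 5 or more. The ratio of summed UMIs was given with an exact conditional binomial 95% interval (shares with Clopper-Pearson, levels with Poisson intervals). These cover counting error only, and 3 counts were the floor. With 1 library per condition there is no replicate test, and genes past 1.5-fold with at least 200 UMIs are counted by size alone.

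Named genes were the 21 markers, detected genes of the held-out list with values for those with at least 20 UMIs, and list genes past 1.5-fold or at most 4 per list with the most UMIs. Also named were the 10 highest and lowest genes per comparison with at least 200 UMIs. These were found in at least 10 cells of each group with no cell over 20% of the UMIs. Other genes and the class breakdowns of single genes were chosen after their values were seen. The members and lists were chosen with earlier results of these data known, and the ribosomal protein list was added later. Promoters came from RefSeq on GRCm38.p6 and 3′ windows from the reference transcripts. Python 3.11.15 with numpy 2.4.6, scipy 1.17.1, pandas 2.3.3 and scanpy 1.11.5 (Scrublet) was used, and scripts were tested on simulated data. Alternatives were 1 matched cell, no matching, a mean over cells, a mitochondrial limit of 0.1, leaving out the 5% of cells with the highest Scrublet score, a minimum of 50 UMIs, centring, other marker classes and thinning to 3000 UMIs.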

Additional observations from a re-analysis of the deposited data

How the results depend on the processing

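No paired analysis was possible because each condition is 1 table whose barcodes name no sample, and for the same reason no replicate could be left out. Both held-out log2 ratios stayed above 0 under every alternative run. The difference in Zscan4 share between members and the cells with 5 or more (9.15 percentage points, a description of the UMIs that set the classes) was -0.24 against the cells with 5 to 19, and among single genes Nelfa was lower instead of higher, at a log2 ratio of -0.42, when those cells were set against members. The count of genes past 1.5-fold between members and matched cells (30) was 10 with 1 matched cell, 218 without matching and 511 at a minimum of 50 UMIs. Between the cells with 5 or more and members (205) it was 93 with 1 matched cell, 1075 at a minimum of 50 UMIs and 54 with 5 to 19, and fewer cells or a lower minimum change how many genes are counted by construction. The share of those 205 that were higher, 51.2%, was 58.8% after centring on the median, 36.3% with 20 or more and 69.9% with 1 matched cell. It was 48.3% without matching, 46.2% as a mean over cells, 46.0% at a minimum of 50 UMIs and 46.3% with 5 to 19. Which direction held more genes thus turned in these last settings and with 20 or more. In members, that share was 26.7%, and 60% with 1 matched cell, so the direction turned there as well. The held-out log2 ratio in members (0.41) was 0.87 in those with 2 to 4 marker UMIs, 0.21 in those with 1, 1.66 without Ddit4l and Eif1a and 0.63 also without genes that share a window with a marker. In the cells with 5 or more (4.14) it was 4.39 as a mean over cells, 5.21 with 20 or more, 1.67 with 5 to 19, 5.74 without Ddit4l and Eif1a and 5.04 also without window-sharing genes. The share of kept cells (8.26%) was 3.18% after thinning to 3000 UMIs. Settings with 1 marker UMI or 5 to 19 and those without named genes were chosen after seeing the data. For the causes of the other changes, the cause was not tested. Among single genes, 2141 values stayed within their interval, 189 moved and 1 reversed.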
